A study of Homo sapiens with 12 samples.

Results

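The genes described here are 42 chaperone and heat shock genes of human cells, chosen by name from a fixed list of HSP70, HSP110, HSP90 and HSP40 proteins, the mitochondrial chaperonin, a small heat shock protein, BAG proteins, HSP90 co-chaperones and the heat shock factors HSF1 and HSF2. All 42 had transcripts in the deposited table, which covered 35036 genes. The study measured messenger RNA in HEK293T, an established line of transformed human embryonic kidney cells, after 2 ways of lowering RNA polymerase III (Pol III), the enzyme that makes transfer RNAs and 5S ribosomal RNA. In the first experiment cells were transfected by lipofection with a control siRNA (siControl) or with an siRNA against POLR3A (siPOLR3A), which encodes the largest Pol III subunit, and were collected after 2 days. In the second, cells were kept for 4 hours in 0.1% DMSO, the vehicle, or in 25 µM ML60218, a small-molecule Pol III inhibitor. Each of the 4 groups had 3 libraries, so there were 12 in all. The labels name HEK293T as the line of all groups, although the titles of the second experiment carry a shorter form of that name. Each experiment has its own control, and the labels do not say that the 3 libraries of a group came from separate cultures. The p-values therefore measure the spread between these libraries, which may be technical.

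Chaperones hold, fold and refold other proteins. HSP70 proteins bind exposed hydrophobic stretches in a cycle of ATP hydrolysis that J proteins (HSP40) start and that exchange factors (HSP110 and BAG proteins) end, and many clients then pass to HSP90, whose co-chaperones set its order of binding. The inducible members of these families are switched on by HSF1, which unfolded proteins release from chaperones and which binds repeats of the 5-base unit nGAAn, called heat shock elements.

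Of the 42 genes, 37 had a promoter window in the RefSeq table (GRCh38.p14), which runs from 250 bases before to 50 bases after an annotated start. A heat shock element of 3 units was searched in it as GAANNTTCNNGAA, or TTCNNGAANNTTC on the other strand, and 7 of these 37 genes (18.9%) had a match, against 0.608% of the 27305 genes in that table. The matches are shown because they mark the members with the plainest spelling of the element. A match is a spelling and not a measured binding site, and a window with no match says only that these letters are not in it. Capitals mark the matched bases, and each sequence reads 5′ to 3′ on the strand of the gene.
HSPD1, chr2:197500058-197500090, minus strand: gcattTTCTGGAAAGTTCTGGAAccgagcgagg
HSP90AB1, chr6:44247768-44247800, plus strand: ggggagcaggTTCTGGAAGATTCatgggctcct
HSP90AB1, chr6:44247821-44247853, plus strand: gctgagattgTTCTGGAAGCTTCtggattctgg
DNAJB6, chr7:157336863-157336895, plus strand: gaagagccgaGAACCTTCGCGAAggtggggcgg
CHORDC1, chr11:90223077-90223119, minus strand: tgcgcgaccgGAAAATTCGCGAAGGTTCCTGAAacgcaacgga
HSP90AA1, chr14:102087110-102087142, minus strand: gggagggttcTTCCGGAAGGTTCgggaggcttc

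The capitals of HSPD1 and CHORDC1 are longer because 2 and 3 matches overlap there. DNAJA1, the seventh gene, has its match just past its start site. The 250 bases before the start of HSPA8, the constitutive HSP70 of the cytosol, hold 2 matches, and they are set beside those of HSPA1B, a stress-inducible HSP70 with no match to these letters.
HSPA8, chr11:123062137-123062386, minus strand: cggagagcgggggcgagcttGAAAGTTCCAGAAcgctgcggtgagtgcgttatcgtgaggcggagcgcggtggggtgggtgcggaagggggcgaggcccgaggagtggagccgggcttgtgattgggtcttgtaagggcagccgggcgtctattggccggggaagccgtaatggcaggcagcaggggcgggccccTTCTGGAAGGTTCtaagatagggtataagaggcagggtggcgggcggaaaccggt
HSPA1B, chr6:31827488-31827737, plus strand: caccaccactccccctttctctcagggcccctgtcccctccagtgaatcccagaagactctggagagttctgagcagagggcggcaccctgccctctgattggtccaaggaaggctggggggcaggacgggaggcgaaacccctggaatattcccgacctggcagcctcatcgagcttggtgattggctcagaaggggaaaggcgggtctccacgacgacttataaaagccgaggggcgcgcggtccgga

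The libraries held between 37008325 and 49479476 estimated reads, of which 6.13% to 6.61% lay on transcripts that could not be given a gene. POLR3A stood at 89.9, 91.2 and 84.7 CPM (counts scaled to library size) in siControl and at 18.8, 18.6 and 14.2 CPM in siPOLR3A, in the direction of the labels. All 7 marker genes known from HEK293T cells and all 4 epithelial markers had a mean of at least 1 TPM (a level that accounts for transcript length). So did 1 of 6 markers of mature kidney, 2 of 5 of fibroblasts, 1 of 5 of leukocytes and 0 of 3 of endothelium. These are bulk libraries, in which fewer cells of a type and less RNA per cell cannot be told apart.

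Per length, the chaperone genes spanned 0.176 to 1419 TPM in siControl. HSPA1B was the highest of the 42 there at 1419 ± 102 TPM (SD, n = 3), rank 73 among all genes. Next came HSPD1 (972.5 TPM) and HSP90AB1 (922 TPM), which did not overlap each other, then HSPA8 (872 TPM) and HSPE1 (829 TPM), and the single libraries of HSP90AB1 overlapped those of HSPA8, as did those of HSPE1. In DMSO the order was different: HSPA8 (1187 TPM), HSP90AA1 (1173 TPM) and HSPE1 (1128 TPM) led with overlapping libraries, and HSPA1B was the sixth at 732 ± 28.5 TPM (SD, n = 3). The controls of the experiments were not tested against each other. DNAJA4 (0.176 TPM in siControl) and HSPA1A (0.381 TPM) were the lowest. Reads can be split wrongly between HSPA1A and HSPA1B, so the separate levels and ranks of this pair are uncertain. The 42 genes together took 0.911% to 0.971% of all TPM in siControl, 0.937% to 0.943% in siPOLR3A, 1.004% to 1.058% in DMSO and 0.876% to 0.912% in ML60218.

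**Figure D1:**
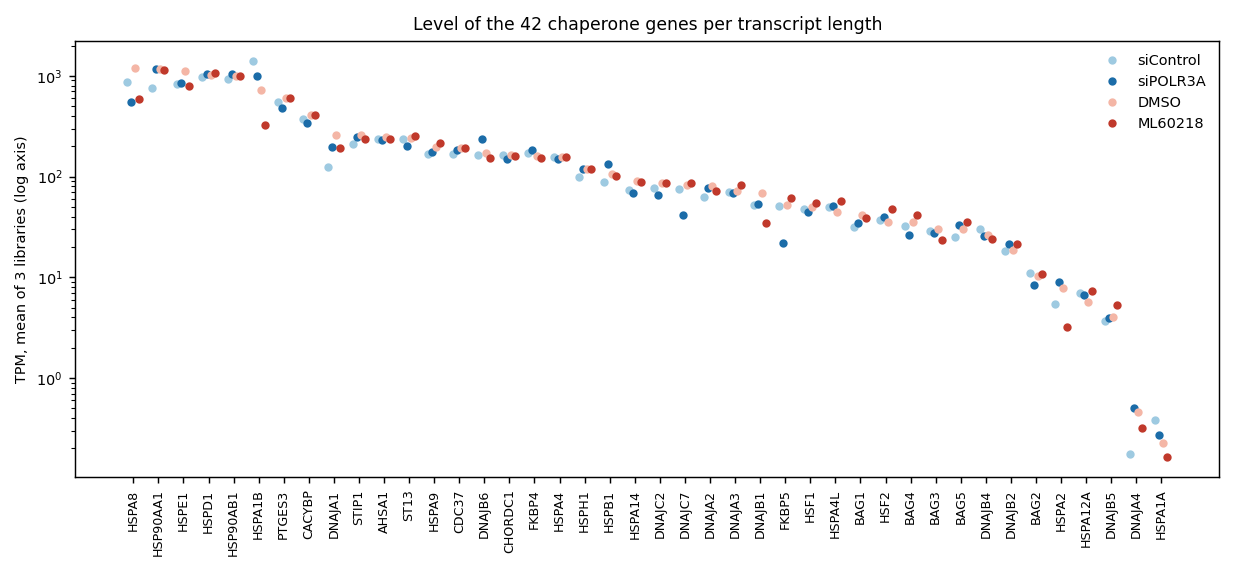
Mean TPM (log axis) of the 42 chaperone genes in the 4 groups, ordered by their level in DMSO, each point the mean of 3 libraries. Most genes lie close together in all groups, while HSPA1B stands at 732 TPM in DMSO and 325 TPM in ML60218.

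After POLR3A depletion the chaperone genes moved in both directions. A gene was called at an adjusted p under 0.05 in edgeR's quasi-likelihood test over all genes. By that rule 16 of the 42 were higher in siPOLR3A, 15 were lower and 11 were not called. Of all 15685 genes tested, 57.7% were called, 27.9% higher and 29.7% lower. The median log2 fold change of the 42 genes was 0.002, against 0.006 for all genes tested.

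After 4 hours of ML60218 the chaperone genes were more often lower. The test called 23 of the 42 lower, 4 higher (BAG5, DNAJB5, HSF2 and HSPA4L) and 15 neither way. Of all 15730 genes tested, 39.9% were called, 18.6% higher and 21.3% lower. The median log2 fold change of the 42 was -0.14, against 0.005 for all genes. Most of the 23 falls were small, and scaling by total counts in place of trimmed means gave 15 lower and 7 higher. On the TPM scale the ML60218 libraries lay entirely below the DMSO libraries for 9 of the 23 genes (HSPA2, HSPA8, HSPE1, DNAJA1, DNAJA2, DNAJB1, DNAJB6, BAG3 and STIP1) and overlapped them for the other 14. This was not counted for all genes called lower, so it gives no contrast between chaperone genes and the rest.

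**Figure D2:**
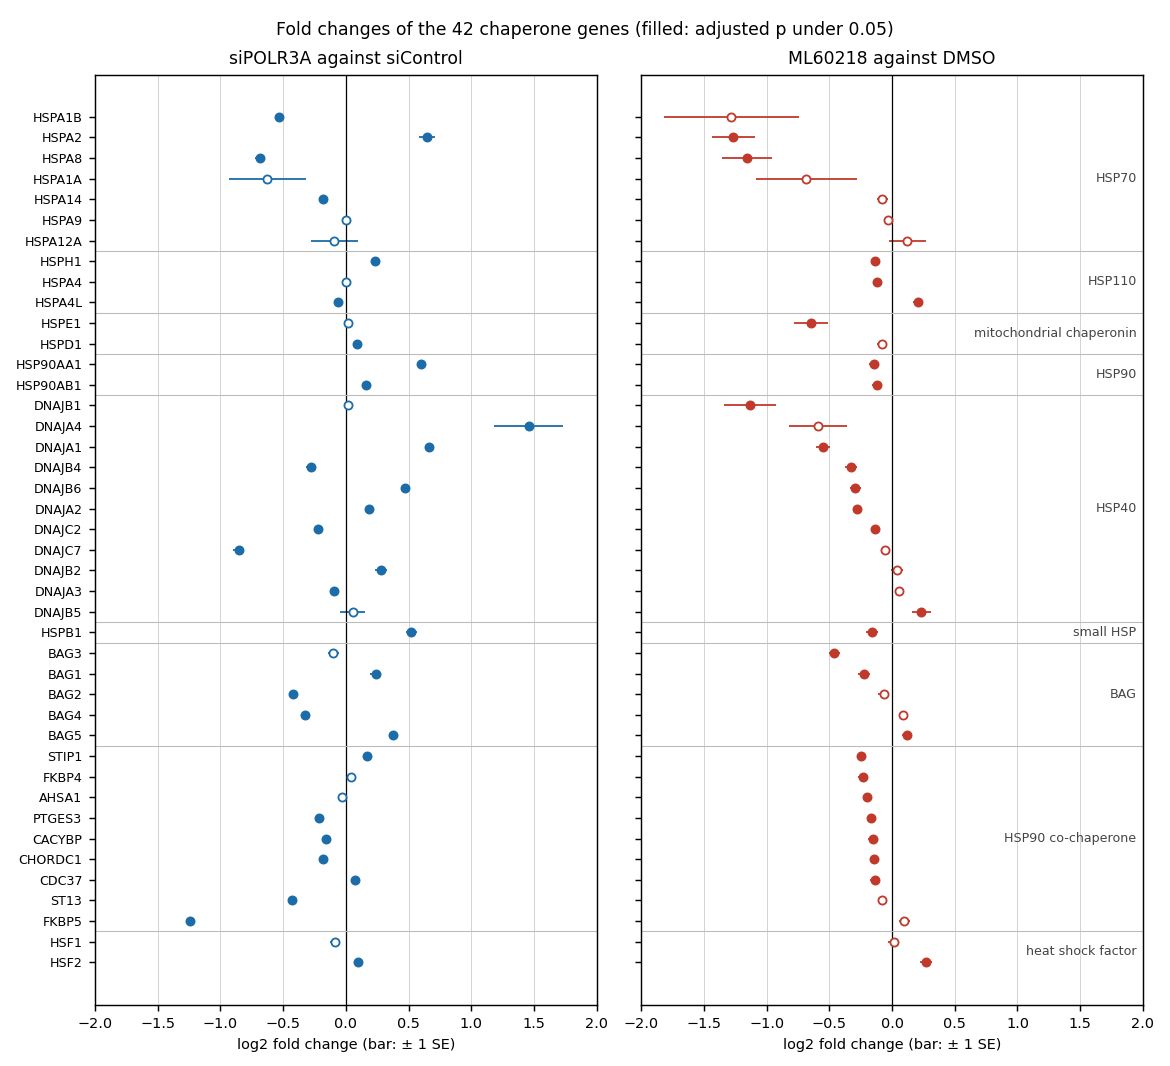
Log2 fold change ± 1 SE of the 42 chaperone genes by family, for siPOLR3A against siControl (left) and ML60218 against DMSO (right), with filled points for adjusted p under 0.05. The left panel has 16 filled points above 0 and 15 below, and the right panel 4 above and 23 below.

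HSP70 genes carried the largest falls with ML60218. HSPA8, which folds new proteins in unstressed cells, stood at 2174, 2226 and 2204 CPM in DMSO and at 1253, 940 and 767 CPM in ML60218. Every ML60218 library was below every DMSO library, and the fold change was -1.16 on the log2 scale (SE 0.20, adjusted p = 0.012). In siPOLR3A it also fell, from 1528, 1558 and 1687 CPM to 982, 978 and 1005 CPM (log2 fold change -0.69, SE 0.03, adjusted p = 9.76e-09). Most of its TPM (89.9%) lay on the coding transcript HSPA8-224.

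HSPA2, an HSP70 best known from male germ cells, was low in these cells and moved in opposite directions. It stood at 15.8, 16.2 and 16.1 CPM in DMSO and at 8.51, 6.69 and 4.92 CPM in ML60218 (log2 fold change -1.27, SE 0.17, adjusted p = 0.00155). In siControl it stood at 11.01, 12.3 and 12.3 CPM and in siPOLR3A at 19.1, 17.8 and 19.1 CPM (log2 fold change 0.65, SE 0.06, adjusted p = 2.21e-07). The groups did not overlap in either experiment.

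HSPA1B and HSPA1A lie side by side on chromosome 6 and encode near-identical stress-inducible HSP70 proteins. Of the 31-base words of the transcript HSPA1A-201, 74.3% also occur in HSPA1B-201, and the 300-base promoter windows are 92.0% identical. Reads of the pair can therefore be split wrongly. The deposited estimates gave HSPA1A only 6 to 33 reads a library and HSPA1B 12801 to 113574, nearly all of the latter on transcripts of alternate loci of the genome. HSPA1B stood at 2860, 2683 and 2873 CPM in siControl and at 1943, 1967 and 1910 CPM in siPOLR3A. That fall of 0.53 on the log2 scale had an SE of 0.03 (adjusted p = 1.19e-10) and left no overlap between the groups.

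With ML60218 the single libraries of HSPA1B spread far apart. HSPA1B stood at 1399, 1421 and 1372 CPM in DMSO and at 1000, 448 and 276 CPM in ML60218, a 3.62-fold range within the treated group. All 3 treated libraries were below all DMSO libraries, but the log2 fold change of -1.28 had an SE of 0.54 and was not called (adjusted p = 0.14). Without ML60218 replicate 1 it was -1.95 (adjusted p = 0.0118), and with DESeq2 in place of edgeR it was -1.28 (adjusted p = 0.0491). HSPA1A stood at 0.242, 0.596 and 0.436 CPM in DMSO and at 0.375, 0.162 and 0.259 CPM in ML60218. In siControl HSPA1A had 0.788, 0.543 and 0.835 CPM and in siPOLR3A 0.630, 0.474 and 0.284 CPM, and it was called in neither experiment, though in siPOLR3A it passed without replicate 1 of that group (-0.92, adjusted p = 0.0419). Summed to 1 gene, the pair gave -0.53 and -1.28 in the same order as HSPA1B alone.

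The other HSP70 genes moved little. HSPA9, the HSP70 of mitochondria, was called in neither experiment (log2 fold changes 0.005 and -0.03). Transcripts with no matched gene that lie between those of HSPA9 in the deposited order were left out. They held 43.9% of the reads of both kinds. With them included, HSPA9 was called in siPOLR3A (0.07, adjusted p = 0.013). Of the TPM on its matched transcripts, 72.6% lay on HSPA9-208, annotated for nonsense-mediated decay. Its matched coding transcripts alone gave -0.37 in siPOLR3A (adjusted p = 0.0227). HSPA14, which pairs with DNAJC2 at the ribosome, fell by 0.18 on the log2 scale in siPOLR3A, and its value with ML60218 was -0.08 (adjusted p = 0.165). HSPA12A, a distant relative, was called in neither, and with ML60218 it passed without DMSO replicate 2 (0.30, adjusted p = 0.0236). Left-out transcripts of the same kind held 57.0% of the reads around HSPA12A. With them included, its value in siPOLR3A went from -0.09 to 0.10 and was called (adjusted p = 0.0258).

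Among the HSP110 exchange factors, HSPH1 rose in siPOLR3A, from 268, 290 and 282 CPM to 323, 336 and 329 CPM (log2 fold change 0.23, SE 0.03, adjusted p = 3.48e-06). With ML60218 it fell, from 331, 337 and 330.0 CPM to 300.3, 302 and 305 CPM (log2 fold change -0.14, SE 0.03, adjusted p = 0.00409), a call lost with total counts or with coding transcripts alone (both -0.07, adjusted p = 0.118 and 0.311). HSPA4 was called only with ML60218 (-0.12), with the difference between the effects called too (0.13, adjusted p = 0.0033). The ML60218 call of HSPA4 was lost under 2 alternatives, among them without DMSO replicate 2 (adjusted p = 0.0505). Its value nearest 0 under the alternatives was -0.049. In TPM its means were 154.7 in DMSO and 156.3 in ML60218, with overlap. HSPA4L went the other way from HSPH1: it stood at 208, 206 and 206 CPM in DMSO and at 226, 238 and 252 CPM in ML60218 (log2 fold change 0.21, SE 0.04, adjusted p = 0.00252), and it fell by 0.06 on the log2 scale in siPOLR3A (adjusted p = 0.024), a call lost without siPOLR3A replicate 1 or 3 (adjusted p = 0.0555 and 0.0894). That fall was near 0 with total counts (-0.01, adjusted p = 0.661) and upper quartile scaling (-0.001, adjusted p = 0.975).

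HSPD1 and HSPE1 encode the subunits of the mitochondrial chaperonin and its lid, and their genes start head to head on chromosome 2. Their exons share 281 bases on opposite strands, and the counting is not stated to use strand. HSPE1 stood at 287, 285 and 279 CPM in DMSO and at 207, 190 and 146 CPM in ML60218 (log2 fold change -0.65, SE 0.14, adjusted p = 0.0179). HSPD1 stood at 1915, 1964 and 1935 CPM in DMSO and at 1863, 1872 and 1760 CPM in ML60218 (log2 fold change -0.08, SE 0.04, adjusted p = 0.0968). Both pairs of groups were free of overlap, with the gap small for HSPD1.

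In siPOLR3A the chaperonin genes hardly moved. HSPD1 rose by 0.09 on the log2 scale (adjusted p = 0.00683), from 1806, 1897 and 1883 CPM to 1955, 2026 and 1960 CPM, and was at the threshold without siPOLR3A replicate 2 (0.07, adjusted p = 0.0509). HSPE1 stood at 205, 212 and 221 CPM in siControl and at 216, 218 and 214 CPM in siPOLR3A, with overlap (adjusted p = 0.559).

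Both cytosolic HSP90 genes rose after POLR3A depletion. HSP90AA1, the more inducible form, went from 2306, 2396 and 2421 CPM in siControl to 3597, 3642 and 3567 CPM in siPOLR3A (1.52-fold, log2 fold change 0.60, SE 0.02, adjusted p = 6.67e-12). HSP90AB1, the more constitutive form, went from 2218, 2266 and 2248 CPM to 2462, 2571 and 2503 CPM (log2 fold change 0.16, SE 0.02, adjusted p = 1.96e-05). Neither gene's groups overlapped.

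With ML60218 both were slightly lower. HSP90AA1 stood at 3688, 3738 and 3707 CPM in DMSO and at 3465, 3411 and 3185 CPM in ML60218 (log2 fold change -0.15, SE 0.04, adjusted p = 0.0137). HSP90AB1 stood at 2390, 2421 and 2410 CPM in DMSO and at 2259, 2298 and 2097 CPM in ML60218 (log2 fold change -0.12, SE 0.04, adjusted p = 0.0369). The call for HSP90AA1 was lost without any single DMSO library (adjusted p from 0.0586 to 0.0665). That for HSP90AB1 was lost likewise (0.11 to 0.124), without ML60218 replicate 1 (0.0509) and with total counts (-0.05, adjusted p = 0.233). In TPM, HSP90AA1 had 1191, 1186 and 1143 in DMSO and 1114, 1157 and 1184 in ML60218, which overlap.

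**Figure D3:**
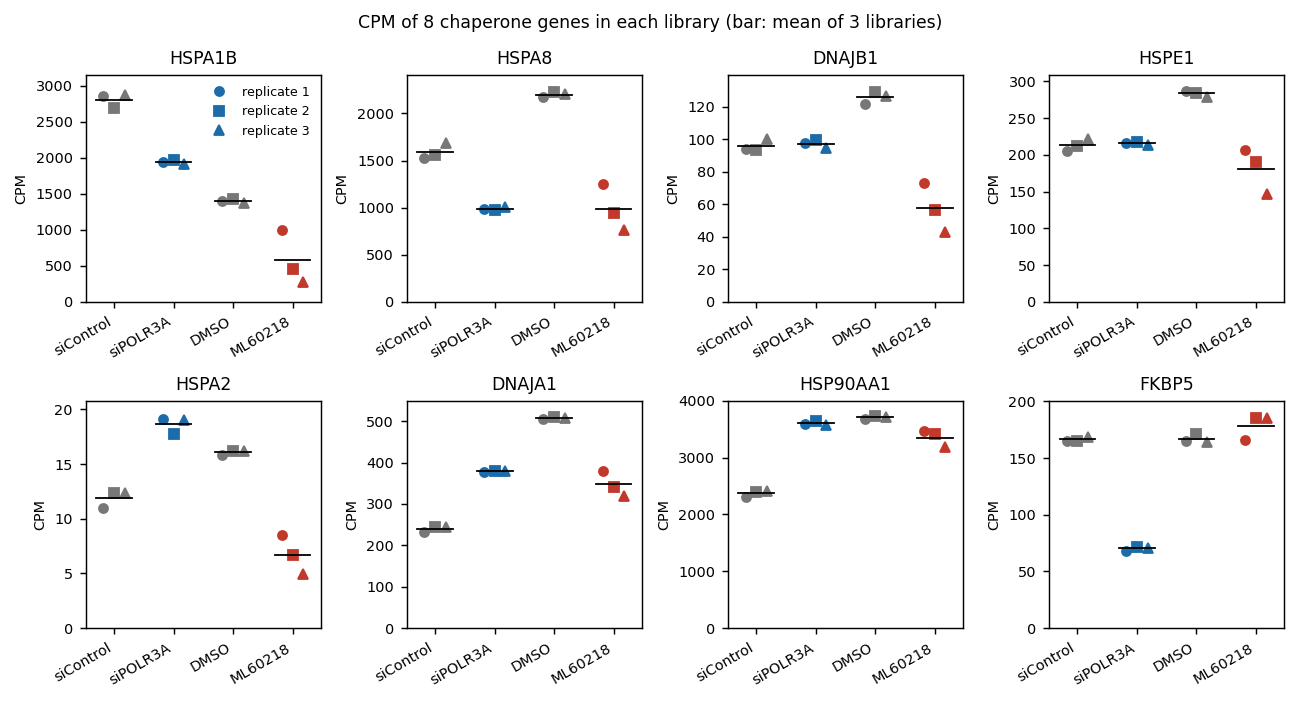
CPM of 8 chaperone genes in each of the 12 libraries, with a symbol for each replicate number and a bar at the mean of 3 libraries. HSPA1B, HSPA8, DNAJB1, HSPE1 and HSPA2 spread widely within ML60218, where replicate 1 is the highest and replicate 3 the lowest, while the siPOLR3A libraries stay close together.

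The J proteins, which deliver clients to HSP70 and start its ATPase, moved in both directions. Of 11, 5 were called higher and 4 lower in siPOLR3A, where 57.7% of all genes were called, and 1 higher and 6 lower with ML60218, where 39.9% were. DNAJB1, the main stress-inducible J protein of the cytosol, stood at 122, 129 and 127 CPM in DMSO and at 73.0, 56.6 and 43.0 CPM in ML60218 (log2 fold change -1.13, SE 0.21, adjusted p = 0.014). This call was at the threshold without DMSO replicate 3 (log2 fold change -1.13, adjusted p = 0.0506). In siPOLR3A DNAJB1 did not pass the test: siControl had 94.1, 93.2 and 100.3 CPM and siPOLR3A 97.5, 99.4 and 94.6 CPM (adjusted p = 0.646).

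DNAJA1, a farnesylated J protein, moved strongly and in opposite directions. It rose from 231, 244 and 244 CPM in siControl to 377, 380 and 380 CPM in siPOLR3A (1.58-fold, log2 fold change 0.66, SE 0.03, adjusted p = 2.99e-12). It fell from 506, 509 and 507 CPM in DMSO to 379, 342 and 320 CPM in ML60218 (log2 fold change -0.55, SE 0.05, adjusted p = 0.000157). DNAJB6, which keeps aggregation-prone proteins soluble, did the same with smaller values (0.47 in siPOLR3A, -0.29 with ML60218).

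The largest fitted rise in siPOLR3A was that of DNAJA4, at 0.234, 0.326 and 0.329 CPM in siControl and 0.882, 0.764 and 0.823 CPM in siPOLR3A (log2 fold change 1.46, SE 0.28, adjusted p = 0.000282). The gene was under 1 CPM in every library, and 68.0% of its TPM lay on a transcript with a retained intron, DNAJA4-209. DNAJC7, a J protein with tetratricopeptide repeats that binds both HSP70 and HSP90, fell from 129, 132 and 131 CPM to 67.8, 77.7 and 71.6 CPM (log2 fold change -0.85, SE 0.04, adjusted p = 4.22e-09). Exons of DNAJC7 share 401 and 484 bases with CNP and NKIRAS2 on the other strand. Giving unmatched transcripts the gene of their neighbours in the table made its value -0.61, and coding transcripts alone made it -1.15 (adjusted p = 3.95e-06).

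The transcripts of DNAJA2 did not all rise in siPOLR3A, and single transcripts were not tested. The gene's log2 fold change there was 0.18 (adjusted p = 6.15e-05). The coding transcript DNAJA2-201 stood at a mean of 49.0 TPM in siControl and 46.3 TPM in siPOLR3A, with overlap. The transcript DNAJA2-202, annotated for nonsense-mediated decay, stood at 11.2 and 29.2 TPM, without overlap. With coding transcripts alone the gene had -0.09 (adjusted p = 0.156). CDC37 was alike: CDC37-201 had 117 and 113 TPM, with overlap, and the retained-intron transcript CDC37-209 30.5 and 42.5 TPM, without. The gene CDC37 went from 0.07 to -0.04 with coding transcripts alone.

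With ML60218, DNAJB4, DNAJA2 and DNAJC2 were also lower (log2 fold changes -0.33, -0.28 and -0.13), and DNAJC2 was at 0.02 with coding transcripts alone and was not called without DMSO replicate 2 or 3 (adjusted p = 0.0644 and 0.0611). DNAJB5 rose, from 7.36, 7.09 and 7.85 CPM to 8.38, 8.82 and 9.01 CPM (log2 fold change 0.23, SE 0.08, adjusted p = 0.0351), a call lost without DMSO replicate 1 or 2 or ML60218 replicate 2 or 3 (adjusted p from 0.0814 to 0.131). In siPOLR3A, DNAJB2 rose by 0.28 on the log2 scale, and DNAJB4, DNAJC2 and DNAJA3 fell by 0.28, 0.22 and 0.09 on that scale.

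HSPB1, a small heat shock protein that holds unfolded proteins without ATP, rose from 25.6, 27.4 and 28.2 CPM in siControl to 39.4, 38.1 and 39.1 CPM in siPOLR3A (log2 fold change 0.52, SE 0.04, adjusted p = 4.6e-08). With ML60218 it was lower (-0.16, adjusted p = 0.0202), a call lost without any single DMSO library (adjusted p from 0.059 to 0.0759).

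The BAG proteins release clients from HSP70, and BAG3, which stress induces, also hands them to autophagy. BAG3 fell with ML60218, from 43.2, 46.4 and 46.3 CPM to 33.7, 33.0 and 32.1 CPM (log2 fold change -0.46, SE 0.05, adjusted p = 0.000129), and here the 3 treated libraries stood close together. In siPOLR3A its values of 44.0, 41.96 and 42.4 CPM overlapped those of siControl at 45.9, 43.5 and 48.2 CPM (adjusted p = 0.0515). It was called there without siControl replicate 2 (-0.14, adjusted p = 0.0139) or siPOLR3A replicate 1 (-0.12, adjusted p = 0.0409). BAG1 rose in siPOLR3A and fell with ML60218 (0.24 and -0.23).

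BAG5 rose in both experiments. It went from 90.3, 90.7 and 89.6 CPM in siControl to 118, 120.0 and 114 CPM in siPOLR3A (log2 fold change 0.38, SE 0.03, adjusted p = 1.36e-08), and from 107, 104 and 105 CPM in DMSO to 107, 119 and 117 CPM in ML60218 (log2 fold change 0.12, SE 0.04, adjusted p = 0.0451). The latter call was lost without any single DMSO library or ML60218 replicate 2 or 3 (adjusted p from 0.0915 to 0.155). BAG2 and BAG4 fell in siPOLR3A (-0.42 and -0.32) and were not called with ML60218. There BAG4 was called higher under 4 alternatives, among them without ML60218 replicate 1 (0.12, adjusted p = 0.0154). In TPM BAG4 stood at 36.09, 35.6 and 34.35 in DMSO and at 37.54, 42.11 and 43.99 in ML60218, without overlap. Exons of BAG2 share 2842 of their 6651 bases with RAB23 on the other strand.

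The 9 HSP90 co-chaperones included the steepest fall of the 42 genes in siPOLR3A. FKBP5, an immunophilin that holds steroid receptors in HSP90 complexes and is a classic glucocorticoid target, went from 165, 165 and 169 CPM in siControl to 68.3, 71.2 and 71.0 CPM in siPOLR3A (2.37-fold lower, log2 fold change -1.25, SE 0.03, adjusted p = 8.78e-15). With ML60218 it stood at 166, 185 and 185 CPM against 165, 172 and 164 CPM in DMSO, with overlap (log2 fold change 0.10, adjusted p = 0.11), and it was called without ML60218 replicate 1 (0.15, adjusted p = 0.00466). Its close relative FKBP4 was not called in siPOLR3A (0.04), though the groups did not overlap, and fell by 0.23 on the log2 scale with ML60218. In siPOLR3A FKBP4 was called higher under 4 alternatives. Among them were total counts (0.095, adjusted p = 0.00143) and coding transcripts alone (0.056, adjusted p = 0.0305).

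ST13, which steadies HSP70 bound to its client, fell from 531, 553 and 554 CPM in siControl to 408, 405 and 406 CPM in siPOLR3A (log2 fold change -0.43, SE 0.02, adjusted p = 2.14e-10). STIP1, which links HSP70 to HSP90, rose in siPOLR3A (0.17) and fell with ML60218 (-0.25). AHSA1, which speeds the HSP90 ATPase, was called only with ML60218 (-0.20), and its effects differed (0.17, adjusted p = 0.00319). PTGES3 (p23), CACYBP and CHORDC1 were called lower in both experiments, with log2 fold changes of -0.21, -0.15 and -0.18 in siPOLR3A and -0.17, -0.15 and -0.15 with ML60218. In TPM the falls with ML60218 were not seen. The means in DMSO and ML60218 were 606 and 597 for PTGES3, 406 and 406 for CACYBP, and 163 and 161 for CHORDC1, with overlap. The ML60218 calls of CACYBP and CHORDC1 were each lost under 1 alternative. CDC37, which brings kinases to HSP90, was at 0.07 and -0.14. Its first call was lost without siControl replicate 1 or 2 or siPOLR3A replicate 1 or 3 (adjusted p from 0.0523 to 0.127), and its second without DMSO replicate 3 (0.0518).

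The heat shock factors changed little. HSF1 stood at 48.8, 46.1 and 49.8 CPM in siControl and at 45.8, 45.6 and 44.8 CPM in siPOLR3A (log2 fold change -0.09, SE 0.04, adjusted p = 0.0543), and the groups did not overlap. Without siControl replicate 2 it was called (-0.12, adjusted p = 0.0163). It stood at 51.5, 48.7 and 47.5 CPM in DMSO and at 48.3, 50.6 and 50.1 CPM in ML60218, with overlap (log2 fold change 0.01, adjusted p = 0.852). HSF2 stood at 70.2, 70.7 and 70.3 CPM in DMSO and at 78.5, 85.8 and 90.1 CPM in ML60218, the largest called rise of the 42 genes there (log2 fold change 0.27, SE 0.05, adjusted p = 0.00192).

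HSF2 also rose slightly in siPOLR3A, from 76.5, 69.3 and 73.2 CPM to 78.7, 78.3 and 78.0 CPM (log2 fold change 0.10, SE 0.03, adjusted p = 0.0209). That call was lost without siControl replicate 2 or 3 or siPOLR3A replicate 1 or 2 (adjusted p from 0.0519 to 0.126). These are messenger RNA levels, and the activity of either factor was not measured.

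The treated libraries of the second experiment differed among themselves for the genes with the largest falls. Against the DMSO mean, HSPA8 was at -0.81, -1.23 and -1.52 on the log2 scale in ML60218 replicates 1, 2 and 3. DNAJB1 was at -0.79, -1.15 and -1.55 in that order, and HSPE1 at -0.45, -0.58 and -0.95. Replicate 1 was thus the least and replicate 3 the most changed. This order held for 13 of the 23 chaperone genes called lower (56.5%), and for 47.0% of all 3350 genes called lower in ML60218. What sets the libraries apart was not tested.

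**Figure D4:**
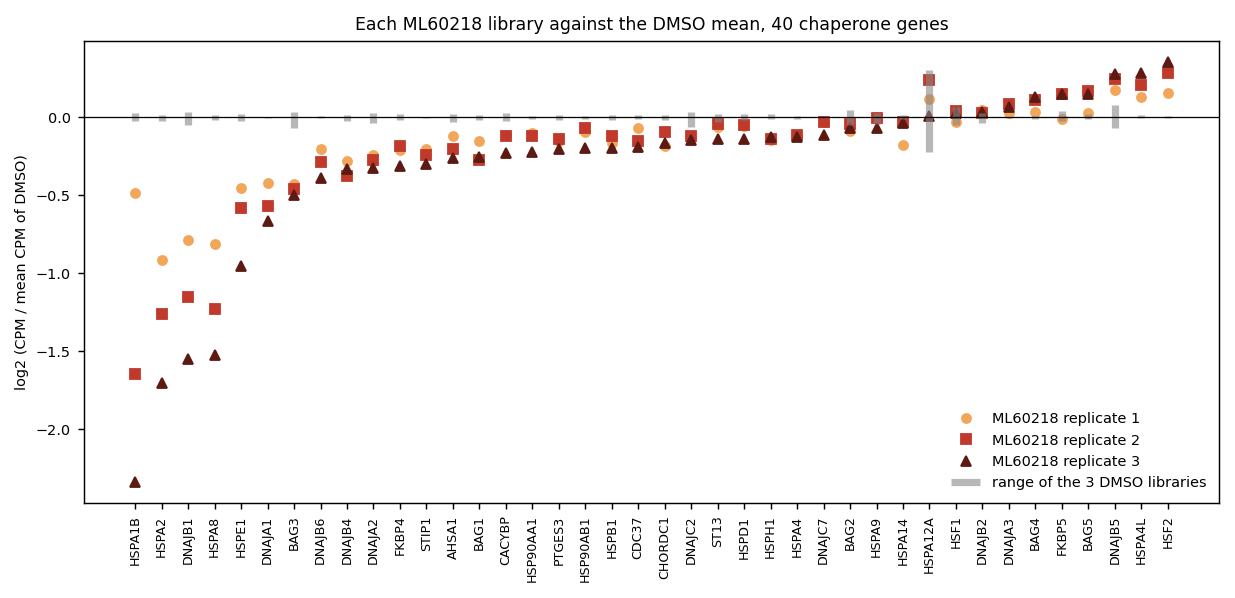
Log2 of the CPM in each ML60218 library over the mean CPM of DMSO, for 40 chaperone genes ordered by replicate 3 (HSPA1A and DNAJA4, both under 1 CPM, are left out), with grey bars for the range of the 3 DMSO libraries. The replicates separate widely at HSPA1B, HSPA2, DNAJB1 and HSPA8, with HSPA8 at -0.81, -1.23 and -1.52, and lie close together for BAG3.

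The falls of HSPA8 and HSPA2 did not depend on a single treated library. Leaving out ML60218 replicate 1, 2 or 3 gave HSPA8 log2 fold changes of -1.37, -1.13 and -1.01, and HSPA2 -1.48, -1.27 and -1.08, all called. HSPE1 had -0.76, -0.69 and -0.52, all called, but lost the call without any single DMSO library (adjusted p from 0.0531 to 0.0619).

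The effects of the experiments on the same gene were then compared in 1 fit of all 12 libraries. A positive difference means a higher log2 fold change in siPOLR3A than in ML60218. It was called for 29 of the 42 genes, positive for 21 and negative for 8. Of all 16032 genes tested, 51.9% were called, 25.1% positive and 26.8% negative. The agents, durations and controls differ between the experiments, and their parts cannot be told apart.

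In 11 genes the fold change was called higher in siPOLR3A and lower with ML60218: HSPA2, HSPH1, HSP90AA1, HSP90AB1, DNAJA1, DNAJA2, DNAJB6, HSPB1, BAG1, STIP1 and CDC37. The share of all genes in this class, and in those below, was not counted. With coding transcripts alone DNAJA2 and CDC37 had -0.09 and -0.04 in siPOLR3A. On the TPM scale HSPH1, HSP90AA1, HSP90AB1, HSPB1, BAG1 and CDC37 overlapped between DMSO and ML60218, and the others did not. The difference between the effects was called in each of the 11, from 0.22 in CDC37 (SE 0.04) to 1.93 in HSPA2 (SE 0.19). The difference was not run with coding transcripts alone. For DNAJA1 it was 1.22 (SE 0.06) and for HSP90AA1 0.75 (SE 0.04). HSPA4L was the only member called lower in siPOLR3A and higher with ML60218 (difference -0.27, SE 0.05), though its value in siPOLR3A was near 0 under other scalings.

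Another 6 genes were lower in both (HSPA8, DNAJB4, DNAJC2, CHORDC1, CACYBP and PTGES3) and 2 were higher in both (BAG5 and HSF2). Of the 6, only HSPA8 had its ML60218 libraries entirely below DMSO on the TPM scale. For HSPA8 the difference was 0.48 (SE 0.21, adjusted p = 0.0836), and without ML60218 replicate 1 it was 0.68 (adjusted p = 0.000214). For HSPA1B it was 0.76 (SE 0.54, adjusted p = 0.277), and without that library 1.42 (adjusted p = 0.00108). DNAJB1 and HSPE1, called with ML60218 alone, differed by 1.16 (SE 0.21) and 0.68 (SE 0.14). FKBP5 had the largest negative difference (-1.34, SE 0.06). That of HSF2 was -0.16 (adjusted p = 0.0494), and leaving out 1 library lost the call for 10 of the 12 (adjusted p from 0.0606 to 0.122), all but siControl replicate 2 and ML60218 replicate 1. The 4 genes called in neither experiment were HSPA1A, HSPA9, HSPA12A and HSF1.

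The members with a matching heat shock element were set beside the others. With ML60218, 6 of the 7 genes with a match were called lower and 16 of the 30 without, beside 21.3% of all genes, and the median log2 fold changes were -0.147 and -0.146. HSPA8 (-1.16) and DNAJA1 (-0.55) fell the most of those with a match, and HSPA2 (-1.27) and DNAJB1 (-1.13) had the largest called falls without one. In siPOLR3A, 5 of the 7 were called higher and 2 lower, with a median of 0.16. Of the 30 without a match, 11 were higher and 10 lower there, with a median of 0.002, beside 27.9% higher and 29.7% lower of all genes. The difference between those with and without a match was not tested. The split goes by each gene's own window. The match of HSPD1 also lies within the annotated span of HSPE1, which counts here as a gene without a match.

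Genes of neighbouring folding systems were counted in the same fits, from lists written with earlier results of these data known. Only the main fits, scaled by trimmed means, were counted, and these counts were not checked with other scalings or on the TPM scale. Among the 42 chaperone genes, scaling by total counts cut those called lower with ML60218 from 23 to 15. The shares to read each count against are those of all genes: 18.6% higher and 21.3% lower with ML60218, and 27.9% higher and 29.7% lower in siPOLR3A. All 8 subunits of TRiC, the cytosolic chaperonin that folds actin and tubulin, were tested. With ML60218, 6 were called lower and 0 higher, all by little: CCT6A at -0.15 and TCP1 at -0.14 on the log2 scale were the largest. In siPOLR3A, 2 were higher, with CCT3 at 0.26, and 1 lower, with CCT8 at -0.13. Of the 6 subunits of prefoldin, which passes clients to TRiC, 4 were lower with ML60218 (PFDN6 at -0.40, PFDN1 at -0.21) and 0 higher. In siPOLR3A 3 were lower, PFDN2 the most at -0.50 and PFDN6 next at -0.19, and 1 was higher.

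Of 10 partners that send chaperone clients to ubiquitin and degradation, 8 were lower with ML60218 and 0 higher. VCP, the segregase of the proteasome pathway, was at -0.36 and SQSTM1 at -0.29. In siPOLR3A 3 were higher and 5 lower, with UBQLN4 falling from 121, 123 and 126 CPM to 49.0, 49.4 and 45.7 CPM (log2 fold change -1.36, adjusted p = 2.23e-14). STUB1, the ubiquitin ligase that binds HSP70 and HSP90, rose there (0.46). Of the 15 chaperones of the endoplasmic reticulum, 10 were lower with ML60218 and 0 higher, SDF2L1 at -0.66 and MANF at -0.40. In siPOLR3A 2 were higher and 5 lower, with PDIA4 at 1.11 and DNAJC3 at -0.76.

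Of 13 further HSP90 co-chaperones, 9 were lower and 1 higher in siPOLR3A, with CDC37L1 at -0.98. With ML60218, 3 were lower and 0 higher, TOMM34 and NUDC both at -0.16. Of 9 other heat shock factor targets tested, 4 were lower and 2 higher with ML60218, with HSPA6 at -0.85 under 1 CPM and HSPB8 at 0.54. In siPOLR3A 3 were lower and 2 higher, with SERPINH1 at -0.80 and CLU at -0.22.

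Of 11 genes of mitochondrial import and folding, 2 were higher and 3 lower with ML60218. The exchange factors of HSPA9 went opposite ways there: GRPEL2 rose from 121, 119 and 119 CPM to 169, 197 and 205 CPM (log2 fold change 0.67, adjusted p = 0.000309), and GRPEL1 fell from 85.4, 84.5 and 85.7 CPM to 68.9, 69.4 and 67.7 CPM (-0.31, adjusted p = 0.000157). In siPOLR3A 2 were higher and 4 lower, with CLPB at -0.36 and LONP1 at 0.31. Of 22 other J proteins tested, 12 were lower and 4 higher in siPOLR3A, DNAJB14 the most at -0.82. This list shares DNAJB11, DNAJC3 and DNAJC10 with the endoplasmic reticulum list and DNAJC19 with the mitochondrial list, so these genes are counted in both. With ML60218, 7 were higher and 5 lower, with DNAJC27 at 0.40 and DNAJC9 at -0.37.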

How the data were processed

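Messenger RNA was sequenced from 12 HEK293T libraries in 4 groups of 3. The authors deposited, per the file headers, estimated counts (expected counts) and TPM values for 194142 transcripts, with transcript lengths, made by a quantifier whose columns are those of salmon. The submitters' processing notes name hg38, bcl2fastq 2.20, Trim Galore and DESeq2 without roles, and the quantifier's version, transcript release and use of strand are not given in the sources used here.

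Transcripts were matched by stable identifier to GENCODE release 29: 158359 through the primary assembly and 10510 of alternate loci through its symbol table (87.0% of transcripts, 35036 genes). The alternate loci were included because they hold nearly all reads of HSPA1B, CHORDC1 and HSF1 and 80.5% of those of DNAJA3. Estimated counts were summed per gene symbol and rounded, a step needed because the design had assumed counts per gene.

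Fits used the 6 libraries of a comparison, or all 12 for the difference, with edgeR 4.0.16 (R 4.3.3): filterByExpr (minimum count 10, minimum total 15), TMM scaling, two-sided robust quasi-likelihood test, Benjamini-Hochberg adjustment over all genes tested, called under 0.05. All 42 genes passed the filter in each fit. SE is the log2 fold change divided by the square root of F. CPM use the TMM factors. The scripts were tested on simulated data. Exons of 18 of the 42 genes overlap those of a gene on the opposite strand, so reads of those stretches could be counted for either gene.

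The members, families, further lists and tests were chosen with earlier results of these data known. Single-library values are given for HSPA1A, HSPA1B, HSPA8, HSPH1, HSP90AA1, HSP90AB1, DNAJB1, BAG3, HSPD1, HSPE1, HSF1, HSF2 and, in each comparison, up to 5 called genes with the largest rise and 5 with the largest fall. At most 2 called genes were named from each further list. DNAJA2, DNAJC2, CDC37 and HSPA9 were described by transcript after their values were seen. Alternatives were other scalings, DESeq2 1.42.0, no filter, the replicate number as a block, unmatched transcripts given their neighbours' gene, coding transcripts only (all alternate-locus transcripts were kept there, since they carry no type), a length offset, HSPA1A and HSPA1B summed, and each library left out. Use of primary assembly transcripts only was added after the data were seen. For the difference, only DESeq2 size factors in edgeR, total counts, the replicate block and each library left out were run.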

Additional observations from a re-analysis of the deposited data

Results flagged for a closer look

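The siPOLR3A effect and the ML60218 effect differed in 29 of the 42 chaperone genes by the test of the difference itself, 21 positive and 8 negative, beside 51.9% of all genes tested. The largest by size were DNAJA4 (2.06, SE 0.33, under 1 CPM), HSPA2 (1.93, SE 0.19), FKBP5 (-1.34, SE 0.06), DNAJA1 (1.22, SE 0.06) and DNAJB1 (1.16, SE 0.21). Agent, duration and control were not the same in the experiments.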

How the results depend on the processing

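Of the calls on the 42 genes, 24 of 31 in siPOLR3A, 14 of 27 in ML60218 and 28 of 29 of the differences were kept under every alternative run. The last share cannot be set beside the others, because fewer alternatives were run for the differences. Coding transcripts only, the length offset, DESeq2, upper quartile scaling, no filter and the other ways of matching or summing transcripts were not run for them. Those lost under at least 1 were HSPA4L, HSPD1, DNAJA2, DNAJA3, BAG1, CDC37 and HSF2 in siPOLR3A, HSPA4, HSPH1, HSPE1, HSP90AA1, HSP90AB1, DNAJB1, DNAJB5, DNAJC2, HSPB1, BAG5, CHORDC1, CACYBP and CDC37 in ML60218, and HSF2 for the difference. Of the genes not called, 2 of 11 in siPOLR3A, 8 of 15 in ML60218 and 10 of 13 for the difference stayed so under every alternative run. Called under at least 1 were HSPA1A, HSPA4, HSPA9, HSPA12A, HSPE1, DNAJB1, BAG3, FKBP4 and HSF1 in siPOLR3A. In ML60218 they were HSPA1A, HSPA1B, HSPA12A, HSPA14, DNAJA3, BAG4 and FKBP5, and for the difference HSPA1B, HSPA8 and HSPA14. In ML60218 the members called higher were 7 by total counts or upper quartile scaling and 2 with a length offset, against 4, and those called lower were 15 by total counts, against 23. In siPOLR3A, upper quartile scaling gave 21 higher and 13 lower, against 16 and 15. Leaving out 1 library at a time gave 2 to 6 higher and 16 to 23 lower in ML60218, where all genes called ranged from 4439 to 6801. In siPOLR3A it gave 14 to 15 higher and 14 to 17 lower (all genes called 8354 to 8708), and for the difference 21 to 23 positive and 7 to 9 negative (all genes called 7776 to 8566). Each group kept at least 2 libraries.

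Among values called in at least 1 of the settings compared, signs changed in siPOLR3A for HSPA4 with upper quartile scaling (0.062), HSPA4L with the length offset (0.008), HSPA12A with neighbouring transcripts included (0.10), and HSPA9, DNAJA2 and CDC37 with coding transcripts only (-0.37, -0.085 and -0.04). In ML60218 the same held for DNAJC2 with coding transcripts only (0.018). Further members changed sign where neither value was called, among them AHSA1, HSPE1 and DNAJB1 in siPOLR3A and DNAJC7, HSPA9 and HSF1 in ML60218. The cause was not tested beyond the transcripts named in the report.

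With primary assembly transcripts only, HSPA1A had a fitted log2 fold change of -7.17 in ML60218 (adjusted p = 0.0012). That value is set against estimates of 0: its only such transcript, HSPA1A-201, had 0.0 TPM in every ML60218 library and 0.126, 0.325 and 0.227 TPM in DMSO. DNAJA3 in siPOLR3A was not called in that setting (-0.06, adjusted p = 0.779).

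Replicate numbers did not pair the libraries: same-numbered libraries had correlations of deviations from -0.099 to -0.036. With the replicate block, ML60218 had 2 genes called higher and 21 lower, DNAJB1 was at -1.16 (adjusted p = 0.0509), and siPOLR3A kept 16 higher and 15 lower.

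The values of HSPA1A rest on 6 to 33 reads a library. How the quantifier split reads between HSPA1A and HSPA1B was not tested.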
